A study of Mus musculus with 8 samples.

Results

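The 10 keratins described here are the main keratins of the epidermal layers and of wounded or stressed epidermis. They were taken by gene symbol from the deposited gene table: the basal keratins Krt5, Krt14 and Krt15, the suprabasal keratins Krt1, Krt10 and Krt2, and the stress-induced keratins Krt6a, Krt6b, Krt16 and Krt17. All 10 were found among the 18901 genes of the table, and all 10 passed the filter on low values. RNA was sequenced from whole cheek skin of 8 mice. In 4 TBX20fl/fl;K14-Cre mice, exons 2 to 3 of the transcription factor gene Tbx20 were floxed and Cre was driven by the K14 promoter, that is, by the promoter of Krt14, one of the keratins measured here. The 4 TBX20fl/fl mice carried the floxed allele without Cre and were littermate controls. All 8 mice were 7-week-old females of mixed C57BL/6N and C57BL/6J background, and all had received 10 µg of brain natriuretic peptide (BNP), a peptide that provokes scratching, by intradermal injection into the cheek. They were recorded for 30 min, and the skin was taken 5 h later. Every mouse had thus been injected and had been free to scratch, and there was no uninjected group. The K14 promoter acts in basal keratinocytes and their descendants, so other cells of the skin keep the gene.

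Keratins are the intermediate filament proteins of epithelial cells. A filament is built from pairs of a type I and a type II keratin: KRT5 pairs with KRT14 in the basal layer, where keratinocytes divide, and KRT1 pairs with KRT10 once the cells leave that layer and begin to differentiate. KRT15 is a further type I keratin of basal cells and of the stem cell region of the hair follicle. KRT2 is a late suprabasal keratin that in mice belongs mainly to the skin of ear, tail and sole. KRT6A, KRT6B, KRT16 and KRT17 are found constitutively in hair follicles, nails and some mucosae, and keratinocytes between the follicles switch them on after wounding, in hyperproliferation and in inflammation.

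The 5 type II genes of the set lie together on chromosome 15 and the 5 type I genes on chromosome 11, all on the minus strand of the GRCm38 annotation (GENCODE). Krt6b (chr15:101676023-101680287), Krt6a (chr15:101689910-101694307) and Krt5 (chr15:101707070-101712898) are close neighbours, followed by Krt2 (chr15:101810689-101818169) and Krt1 (chr15:101845426-101850794). Krt15 (chr11:100131758-100135928), Krt14 (chr11:100203162-100207548), Krt16 (chr11:100246091-100248902) and Krt17 (chr11:100256217-100261029) form another group, with Krt10 at chr11:99385254-99389364. The deposited table lists Krt1 and Krt10 on the plus strand, unlike the annotation, and gives Krt10 a longer span, up to position 99397449.

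Sequence sets a limit on how far some of these genes can be told apart by reads of 50 bases. Of all 50-base stretches of its protein-coding transcript, Krt6a shared 49.5% exactly with transcripts of other genes and Krt6b shared 50.1%, and 972 stretches were common to both. In the 8 coding exons of equal length, Krt6a and Krt6b differed at 32 of 1426 bases and were 97.8% identical. Their longest identical coding run, in exon 1, is 280 bases. The stretch of 50 bases in which they differ most lies in exon 4, at chr15:101692484-101692533 in Krt6a and chr15:101678303-101678352 in Krt6b. It is shown because reads over it separate the genes, and capitals mark the 10 bases that differ.

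Krt6a exon 4: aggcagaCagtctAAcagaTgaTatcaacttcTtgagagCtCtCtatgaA

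Krt6b exon 4: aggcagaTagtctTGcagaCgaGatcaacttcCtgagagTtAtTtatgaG

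The type I genes Krt14, Krt16 and Krt17 also share sequence. Krt16 shared 37.6% of its stretches with other genes. Gm11597, a locus that is not in the gene table, was the main partner, with 382 of the 570 shared stretches (25.2% of all stretches of Krt16). Krt14 shared 14.4%. The share was 8.52% for Krt5, 3.99% for Krt17, 0.666% for Krt15 and 0 for Krt1, Krt10 and Krt2. One run of 55 bases in exon 6 is the same in all 3 of Krt14 (chr11:100204123-100204177), Krt16 (chr11:100246625-100246679) and Krt17 (chr11:100257448-100257502), so a read inside it fits each of them equally well.

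Exon 6 of Krt14, Krt16 and Krt17: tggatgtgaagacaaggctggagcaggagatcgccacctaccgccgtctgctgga

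How the deposited counts treat reads that fit several genes is not given in the sources used here. Of the counts above 0, 69.0% were not whole numbers, so reads were divided between genes by estimation. Levels of Krt6a against Krt6b, and of Krt16 at low counts, are therefore less certain than those of Krt1 and Krt10.

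The libraries held 16056282 to 19880654 counts each. The floor of 3 counts used here equals 0.151 to 0.187 CPM (counts scaled to a library of equal size), counting error only. Libraries stood apart in 3 ways that touch the keratins. TBX20fl/fl replicate 2 had a TMM scaling factor of 0.735 against 1.007 to 1.075 in the others, and 3759 of the 15969 genes that passed the FPKM filter (mean of 0.1 or more) lay under 0.5 times the lowest of the other 7 mice. TBX20fl/fl;K14-Cre replicate 2 held 136 genes more than 4-fold above every other mouse, 17 of them keratins and 16 keratin-associated proteins of hair, with none of the 10 keratins among them. In TBX20fl/fl replicate 4 there were 23 genes of this kind, of which 3 were Krt6a, Krt6b and Krt16. Tbx20 itself had at most 2 counts in any TBX20fl/fl;K14-Cre mouse and at most 3 in any TBX20fl/fl mouse, all at or under the floor, so the deletion could not be checked in whole skin at this depth. Each mouse is 1 library, and every level below is in FPKM (fragments scaled to transcript length and library size, deposited by the authors), a scale that allows levels of different genes to be compared. FPKM carries no TMM factor, so the place of TBX20fl/fl replicate 2 among the mice can differ from that in the scaled counts.

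Keratin transcripts were abundant. Over the 8 mice the mean level was 1214 ± 169.4 FPKM for Krt14, which ranked 74 among all genes, and 1131 ± 236.3 FPKM for Krt10, which ranked 82 (SD, n = 8). Krt15 followed with 714.2 ± 152.7 FPKM and Krt5 with 668.9 ± 129.3 FPKM. Krt1 had 291.8 ± 67.7 FPKM and Krt17 had 236.3 ± 69.9 FPKM. Then came Krt6a (89.8 ± 96.5 FPKM), Krt16 (48.1 ± 73.6 FPKM) and Krt6b (36.5 ± 82.8 FPKM), whose SDs exceeded their means. Krt2 was near the bottom, with 1.46 ± 0.713 FPKM and a rank of 12653. Neighbours in this order mostly overlapped: Krt14 was above Krt10 in only 4 of 8 mice and Krt15 above Krt5 in 4 of 8. Krt10 was above Krt15, and Krt6a above Krt16, in 8 of 8 mice, although the ranges over mice overlapped. Only Krt5 against Krt1, and Krt6b against Krt2, had ranges that did not overlap.

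**Figure D1:**
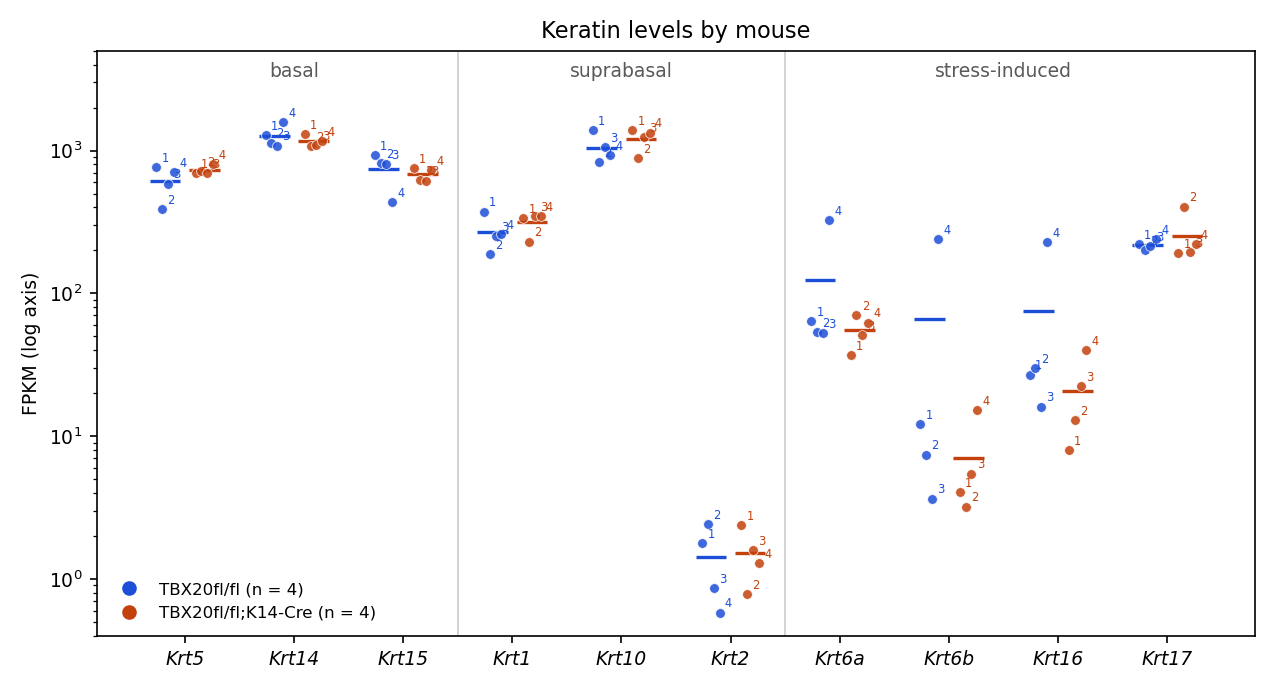
FPKM (log axis) of the 10 keratins in each mouse, with points numbered by replicate and a line at the mean of each genotype (n = 4). The highest mouse is 1.46 to 2.14 times the lowest for each basal and suprabasal keratin other than Krt2, whereas Krt6a, Krt6b and Krt16 in TBX20fl/fl replicate 4 stand at 327.3, 241.1 and 228.6 FPKM, above all other mice.

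The genotypes were compared gene by gene to ask whether loss of epidermal Tbx20 went with a change of any keratin in BNP-injected skin. None of the 10 passed the test. With edgeR's quasi-likelihood test on the counts, 0 of 10 keratins had a Benjamini-Hochberg adjusted p under 0.05, and 0 of 17124 genes tested did (0%). The lowest adjusted p of any gene was 0.498, and 1431 genes had an unadjusted p under 0.05. At that looser limit 3 of 10 keratins were lower in TBX20fl/fl;K14-Cre mice, against 5.91% of all genes, and 0 of 10 were higher, against 2.45%. The 3 were Krt6a, Krt6b and Krt16. This count was not stable: it was 1 with the length trend of the libraries removed, and 0 with a muscle covariate or without any one of TBX20fl/fl;K14-Cre replicates 1, 2 and 3. The number over all genes was 1479 with the length trend removed and 750 with the muscle covariate. It was 970, 929 and 823 without TBX20fl/fl;K14-Cre replicates 1, 2 and 3 in turn. Without TBX20fl/fl replicate 4 none of these 3 was left, and the 1 keratin counted was Krt15. With limma on log2(FPKM + 1), 0 of 10 keratins had an unadjusted p under 0.05, against 6.55% of the genes tested, and adjusted p ranged from 0.457 to 0.853. The FPKM values of the genotypes overlapped for all 10 keratins, whereas 1.92% of genes lay wholly lower and 5.45% wholly higher in TBX20fl/fl;K14-Cre mice. Over the 10 keratins 6 had a log2 fold change below 0 and 4 above, with a median of -0.22, against a median of 0.03 over all genes tested. The FPKM summed over the 10 was 4433 ± 351.6 in the mice with Cre and 4431 ± 685.4 in those without (SD, n = 4 each). On the CPM scale, which uses the TMM factors and does not correct for length, the sum was 7896 ± 733.8 with Cre and 8683 ± 788.3 without. TBX20fl/fl replicate 2 had the lowest sum in FPKM (3651) but 9057 in CPM, where the mice ranged from 7003 to 9275. In whole skin, fewer cells of a type and less RNA per cell cannot be told apart.

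Krt5, the type II keratin of the basal layer, was at 698.0, 713.9, 694.4 and 802.8 FPKM in TBX20fl/fl;K14-Cre replicates 1 to 4 and at 764.1, 388.7, 586.0 and 703.1 FPKM in TBX20fl/fl replicates 1 to 4. The TBX20fl/fl;K14-Cre values lay close together, and the lowest value belonged to TBX20fl/fl replicate 2. The means were 727.3 ± 51.0 and 610.5 ± 165.3 FPKM, a difference within the spread of the mice (two-sided exact permutation test over 70 assignments, p = 0.257; the smallest p it allows is 0.0286). From counts the log2 fold change was 0.12 (SE 0.174, edgeR adjusted p = 0.703), and it was 0.04 without TBX20fl/fl replicate 2.

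Krt14, its type I partner and the gene whose promoter drove Cre, was at 1304.7, 1075.1, 1094.1 and 1157.4 FPKM in the TBX20fl/fl;K14-Cre mice and at 1284.1, 1137.0, 1084.1 and 1571.9 FPKM in the TBX20fl/fl mice. The highest value was that of TBX20fl/fl replicate 4, and the other 7 mice overlapped between genotypes. The means were 1158 ± 104.1 and 1269 ± 218.8 FPKM (exact permutation p = 0.514), and the log2 fold change from counts was -0.30 (SE 0.191, edgeR adjusted p = 0.508). Without TBX20fl/fl replicate 4 the difference in means went from -111.4 to -10.6 FPKM, but the log2 fold change from counts only to -0.24. It was -0.22 without TBX20fl/fl replicate 2 and -0.08 with the length trend removed. On the CPM scale the difference in means of all mice was -399.3 (exact permutation p = 0.143).

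Krt15 was at 758.0, 621.8, 616.1 and 729.4 FPKM in the TBX20fl/fl;K14-Cre mice and at 932.1, 812.2, 807.2 and 436.6 FPKM in the TBX20fl/fl mice. The lowest of all mice was TBX20fl/fl replicate 4, and the other 3 TBX20fl/fl mice were the highest. The means of all mice were 681.3 ± 73.0 and 747.1 ± 214.9 FPKM (exact permutation p = 0.571), with a log2 fold change of -0.33 (SE 0.28, edgeR adjusted p = 0.55). Without TBX20fl/fl replicate 4 the control mean was 850.5 ± 70.7 FPKM (n = 3) and the genotypes no longer overlapped (exact permutation p = 0.0571, the smallest that 3 against 4 mice allow). Krt15 was then the only keratin of the 10 to lie wholly lower, against 4.23% of genes, and 0 of 10 lay wholly higher, against 12.2%. Its log2 fold change was then -0.54 (SE 0.204, edgeR adjusted p = 0.354), and over all 19 alternatives its adjusted p ranged from 0.354 to 0.919. Other alternatives brought the value closer to 0: it was -0.14 without TBX20fl/fl replicate 2 and -0.09 with the length trend of the libraries removed. Without TBX20fl/fl replicate 1 the log2 fold change was -0.27, while the difference in mean FPKM went from -65.7 to -4.02. In the edgeR fit without TBX20fl/fl replicate 4, 1 of 10 keratins had an unadjusted p under 0.05, against 13.6% of genes.

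Krt1, the first type II keratin of differentiating cells, was at 336.5, 230.6, 347.0 and 347.2 FPKM in the TBX20fl/fl;K14-Cre mice and at 373.5, 187.1, 252.0 and 260.7 FPKM in the TBX20fl/fl mice. Replicate 2 was the lowest mouse of each genotype. The means were 315.3 ± 56.7 and 268.3 ± 77.4 FPKM (exact permutation p = 0.371), and the log2 fold change from counts was 0.09 (SE 0.208, edgeR adjusted p = 0.808). It was 0.24 without TBX20fl/fl replicate 1 and 0.04 without TBX20fl/fl replicate 4.

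Krt10, its type I partner, was at 1393.6, 881.9, 1240.3 and 1335.7 FPKM in the TBX20fl/fl;K14-Cre mice and at 1391.9, 832.2, 1050.8 and 925.5 FPKM in the TBX20fl/fl mice. The order of the mice was much like that of Krt1, and the genotypes spanned almost the same range. The means were 1213 ± 229.5 and 1050 ± 244.8 FPKM (exact permutation p = 0.4). In 4 of 4 same-numbered pairs, which the authors do not describe as pairs, the mouse with Cre had more Krt10 in FPKM. The exact sign-flip p of 0.125 is the smallest that 4 pairs allow, and replicates 1 were nearly equal (1393.6 against 1391.9 FPKM). From counts the log2 fold change was 0.05 (SE 0.221, edgeR adjusted p = 0.896), and it was -0.04 without TBX20fl/fl replicate 4. In a fit to counts that paired mice of the same number it was 0.05 (edgeR adjusted p = 0.902).

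Krt2 was at 2.39, 0.78, 1.59 and 1.29 FPKM in the TBX20fl/fl;K14-Cre mice and at 1.79, 2.43, 0.86 and 0.58 FPKM in the TBX20fl/fl mice, from 26 to 111 counts per mouse. Both genotypes spread over the whole range, with means of 1.51 ± 0.674 and 1.42 ± 0.852 FPKM (exact permutation p = 0.943). The log2 fold change from counts was -0.15 with an SE of 0.55 (edgeR adjusted p = 0.887), and it took both signs among the alternatives, from -0.47 to 0.42.

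Krt6a, a type II keratin of wound-edge and follicle cells, was at 36.74, 70.64, 51.25 and 62.34 FPKM in the TBX20fl/fl;K14-Cre mice and at 63.91, 53.54, 52.66 and 327.3 FPKM in the TBX20fl/fl mice. TBX20fl/fl replicate 4 was 4.63-fold above the highest of the other 7 mice, and those 7 overlapped. The means were 55.2 ± 14.7 and 124.3 ± 135.4 FPKM (exact permutation p = 0.429). The log2 fold change from counts was -1.27 (SE 0.562, edgeR adjusted p = 0.498). In the fit that paired mice of the same number (replicate block) it was -0.85, Krt6a no longer had an unadjusted p under 0.05, and the edgeR adjusted p = 0.405.

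Krt6b, the neighbouring and near-identical gene, was at 4.04, 3.21, 5.46 and 15.21 FPKM in the TBX20fl/fl;K14-Cre mice and at 12.06, 7.43, 3.65 and 241.1 FPKM in the TBX20fl/fl mice. The last of these was 15.9-fold above the highest other mouse, with 10119 counts against 139 to 663. The means were 6.98 ± 5.56 and 66.1 ± 116.8 FPKM (exact permutation p = 0.429). The log2 fold change from counts was -3.29 (SE 1.26, edgeR adjusted p = 0.498), and with the replicate block it was -1.73 (edgeR adjusted p = 0.405).

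Krt16, the type I partner of KRT6 in wounded epidermis, was at 7.93, 12.86, 22.48 and 40.13 FPKM in the TBX20fl/fl;K14-Cre mice and at 26.99, 29.97, 16.09 and 228.6 FPKM in the TBX20fl/fl mice. Again the last mouse stood out, 5.7-fold above the next, which was TBX20fl/fl;K14-Cre replicate 4. The means were 20.9 ± 14.2 and 75.4 ± 102.3 FPKM (exact permutation p = 0.371). The log2 fold change from counts was -1.95 (SE 0.835, edgeR adjusted p = 0.498).

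Without TBX20fl/fl replicate 4 the differences of these 3 keratins shrank. The log2 fold change became -0.26 for Krt6a (SE 0.237, edgeR adjusted p = 0.499), -0.37 for Krt6b (SE 0.581, edgeR adjusted p = 0.694) and -0.50 for Krt16 (SE 0.523, edgeR adjusted p = 0.556). The remaining 3 TBX20fl/fl mice averaged 56.7 ± 6.26 FPKM of Krt6a, 7.71 ± 4.21 FPKM of Krt6b and 24.3 ± 7.31 FPKM of Krt16 (SD, n = 3), each within 1 SD of the TBX20fl/fl;K14-Cre mean.

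**Figure D2:**
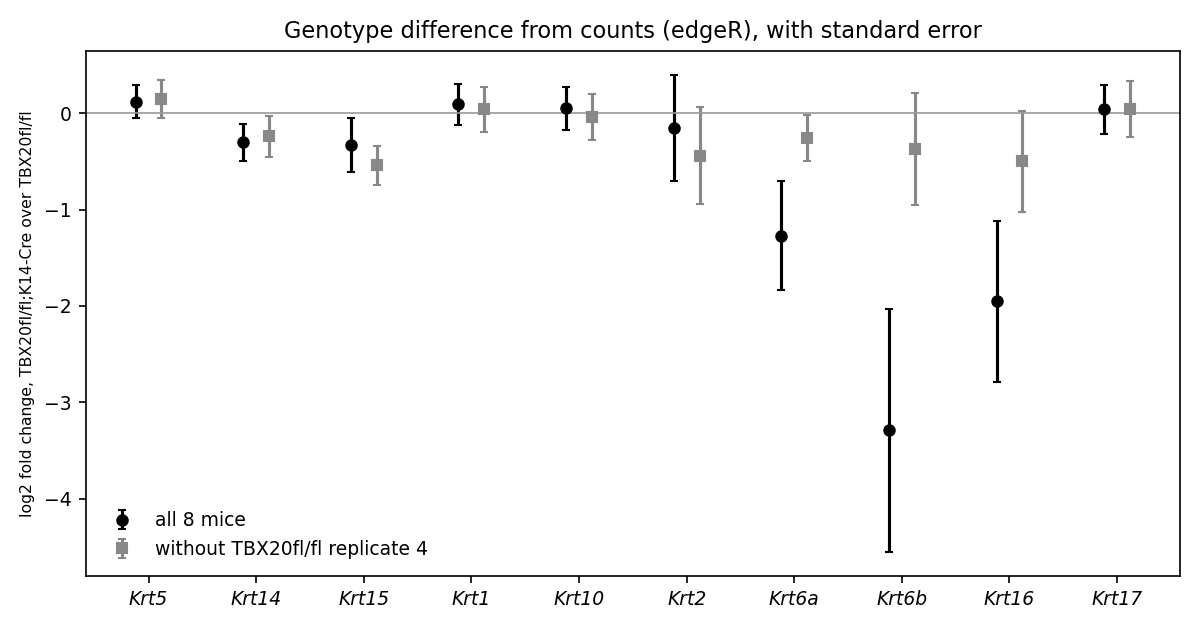
Log2 fold change of each keratin, TBX20fl/fl;K14-Cre over TBX20fl/fl, from counts with edgeR, with bars of 1 standard error, for all 8 mice and without TBX20fl/fl replicate 4. Krt6b moves from -3.29 to -0.37, Krt16 from -1.95 to -0.50 and Krt6a from -1.27 to -0.26, while Krt15 moves from -0.33 to -0.54.

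Krt17, a type I keratin of the outer root sheath of the hair follicle that is also induced by injury, did not share this pattern. It was at 192.4, 404.5, 195.6 and 221.8 FPKM in the TBX20fl/fl;K14-Cre mice and at 222.3, 199.9, 212.9 and 241.1 FPKM in the TBX20fl/fl mice. The high mouse was TBX20fl/fl;K14-Cre replicate 2, and the other 7 lay within 192.4 to 241.1 FPKM. The means were 253.6 ± 101.5 and 219.0 ± 17.3 FPKM (exact permutation p = 0.886), and the log2 fold change from counts was 0.04 (SE 0.254, edgeR adjusted p = 0.937). Without TBX20fl/fl;K14-Cre replicate 2 it was -0.28 (edgeR adjusted p = 0.569).

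**Figure D3:**
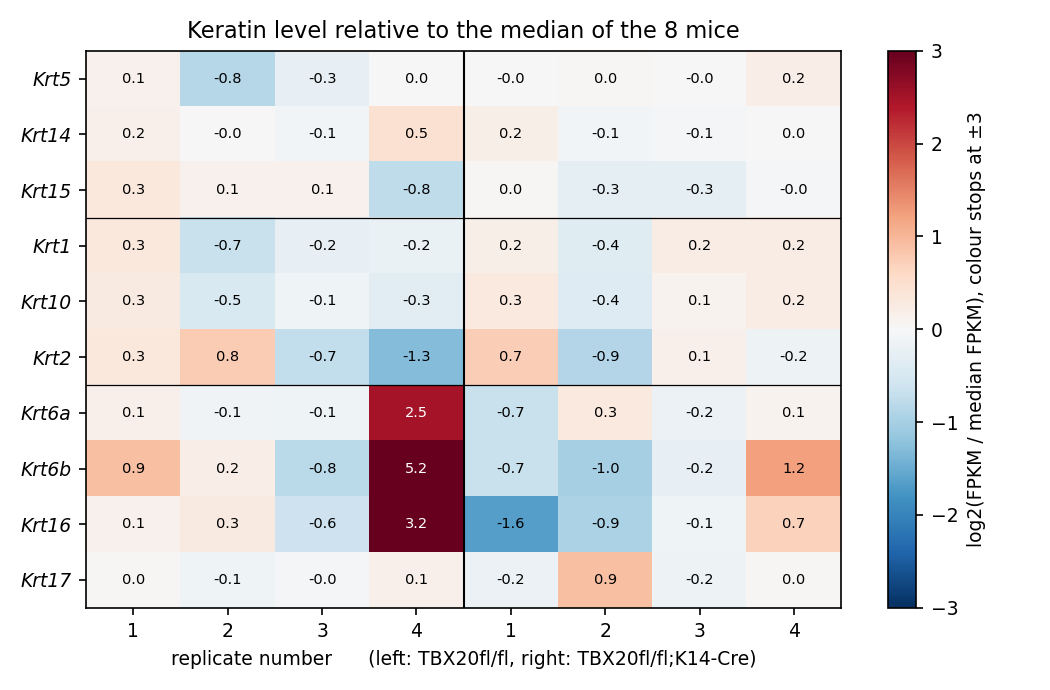
Level of each keratin in each mouse as log2 of its FPKM over the median of the 8 mice, with TBX20fl/fl on the left and TBX20fl/fl;K14-Cre on the right (colour stops at 3 in either direction). TBX20fl/fl replicate 4 combines the highest Krt14, Krt6a, Krt6b and Krt16 with the lowest Krt15 and Krt2, and the raised Krt17 belongs to TBX20fl/fl;K14-Cre replicate 2.

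The extreme mouse for 6 of the 10 keratins was thus TBX20fl/fl replicate 4, which was highest for Krt14, Krt6a, Krt6b and Krt16 and lowest for Krt15 and Krt2. Only 0.144% of all genes lay more than 4-fold above every other mouse in this library, and 3 of 10 keratins did (the 4-fold limit was chosen after the values were seen). The other 20 such genes, named here by example, were not on any list. Cstdc5, a stefin-family protease inhibitor gene, was at 925.2 FPKM against 17.0 to 77.0 FPKM in the other mice, and Stfa1, of the same family, at 386.8 against 4.06 to 18.5 FPKM. Sprr1b, a small proline-rich precursor of the cornified envelope, was at 131.2 FPKM against 4.79 to 23.6 FPKM. Lce3d, a late cornified envelope gene, was at 40.0 FPKM against 1.15 to 6.21 FPKM, and the beta-defensin gene Defb3 was at 4.02 FPKM against 0.19 to 0.46 FPKM.

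Ratios between keratins within a mouse do not depend on the depth of a library. The basal partners Krt5 to Krt14 stood at 0.632 ± 0.0689 with Cre and at 0.481 ± 0.111 without, with overlapping ranges of 0.535 to 0.694 and 0.342 to 0.595, and the lowest ratio was that of TBX20fl/fl replicate 2. The suprabasal partners Krt1 to Krt10 were the steadiest, at 0.261 ± 0.0157 and 0.254 ± 0.026. Krt1 plus Krt10 against Krt5 plus Krt14, a ratio of suprabasal to basal keratin, was 0.808 ± 0.125 and 0.708 ± 0.148, and it was lowest in TBX20fl/fl replicate 4 (0.521) and in TBX20fl/fl;K14-Cre replicate 2 (0.622). Krt15 to Krt14 was 0.563 to 0.63 in the TBX20fl/fl;K14-Cre mice, 0.714 to 0.745 in TBX20fl/fl replicates 1 to 3 and 0.278 in TBX20fl/fl replicate 4. The 4 stress-induced keratins against Krt5 plus Krt14 reached 0.456 in TBX20fl/fl replicate 4 and lay between 0.12 and 0.275 in the other mice. Krt6b to Krt6a was 0.737 in that mouse and 0.0454 to 0.244 in the others, so the proportion of these genes was another one in that mouse, within the limit set by their shared sequence. The type II keratins of the set summed to 0.334 ± 0.0265 of the type I keratins with Cre and to 0.315 ± 0.0999 without. No test was run on these ratios.

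**Figure D4:**
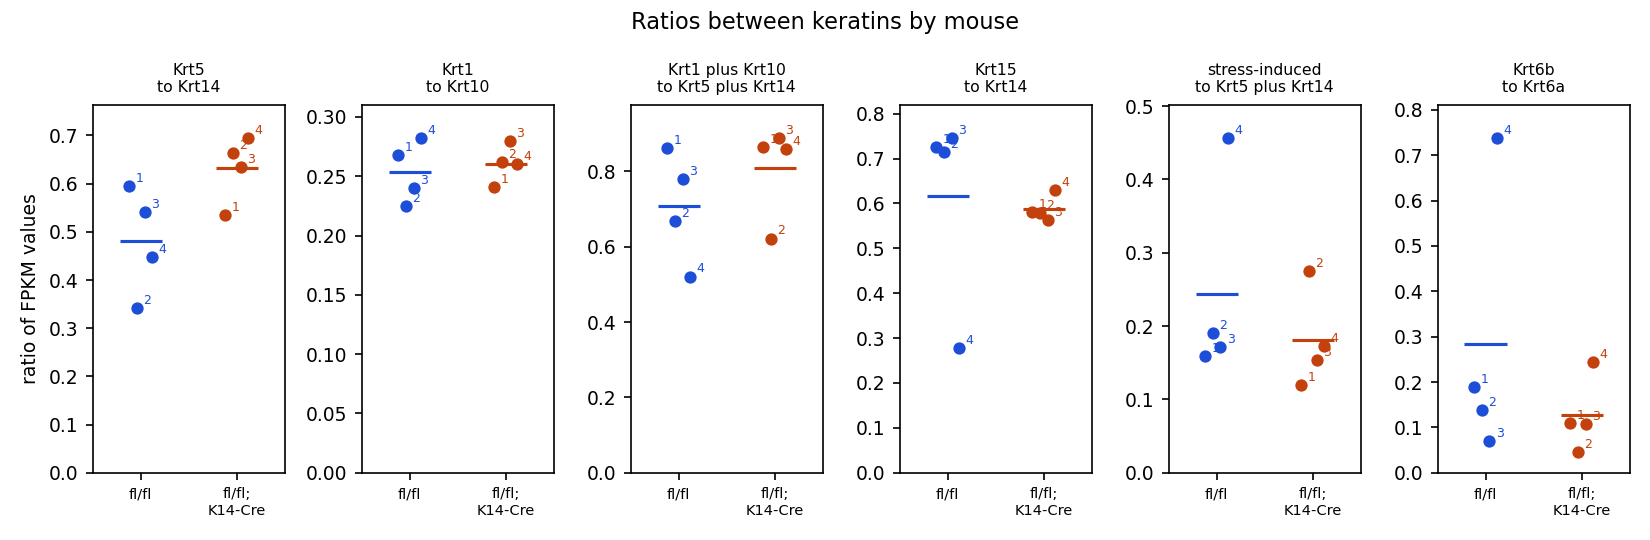
Ratios of FPKM values between keratins in each mouse, with points numbered by replicate and a line at the mean of each genotype (n = 4); every axis starts at 0. Krt1 to Krt10 stays between 0.225 and 0.282, while TBX20fl/fl replicate 4 stands apart in Krt15 to Krt14 (0.278), in the stress-induced keratins to Krt5 plus Krt14 (0.456) and in Krt6b to Krt6a (0.737).

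The keratins grouped by how they varied over the 8 mice, which is a description of mice that share 2 genotypes and unequal libraries. Krt1 and Krt10 were correlated at r = 0.95 on log2(FPKM + 1), and at 0.97 without TBX20fl/fl replicate 4. Krt6b and Krt16 were correlated at 0.96, and at 0.84 without that mouse, while Krt6a and Krt6b fell from 0.93 to 0.33. Krt5 and Krt14, though partners, had r = 0.25, and Krt17 had r = -0.03 with Krt16. Of 13253 other genes, those most like the mean of Krt1 and Krt10 were Krt77 (r = 0.991), Krt78 (0.977) and Tmem109 (0.973). Krt77, itself a keratin of suprabasal cells, was at 748.1 ± 136.1 FPKM with Cre and at 630.6 ± 145.6 FPKM without. Those most like Krt5 and Krt14 were Alpl (0.984), Pfkfb4 (0.976) and Fam81a (0.974). Those most like Krt6a, Krt6b and Krt16 were Cstdc5 (0.953), Csta3 (0.939) and Sprr2f (0.938), and without TBX20fl/fl replicate 4 their r was 0.617, 0.459 and 0.572.

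Genes that work with keratins were read from lists, and none of those tested had an adjusted p under 0.05. For each count below, the shares over all genes at an unadjusted p under 0.05 were 5.91% lower and 2.45% higher, and the median log2 fold change was 0.03. Of the 15 other epidermal, simple and mucosal keratins tested, 1 had an unadjusted p under 0.05 in the lower direction and 0 in the higher, with a median log2 fold change of -0.03. That gene, near the share over all genes, was Krt24, at 2.79 ± 0.425 FPKM in TBX20fl/fl;K14-Cre and 3.67 ± 0.752 FPKM in TBX20fl/fl mice (log2 fold change -0.57, edgeR adjusted p = 0.498). Of 19 genes of desmosomes and hemidesmosomes, the junctions to which keratin filaments attach, 17 had a log2 fold change above 0 and 0 an unadjusted p under 0.05, with a median of 0.31 against 0.03 over all genes. TBX20fl/fl replicate 2 had the lowest sum of the list, 1781 FPKM against 1902 to 2268 FPKM in the other mice. FPKM leaves out the TMM factor of that library (0.735), which the fold changes use. Perp, a desmosomal membrane protein gene, was at 1047 ± 115.1 and 1185 ± 156.6 FPKM, and the plakophilin gene Pkp3 at 52.0 ± 7.4 and 38.6 ± 13.0 FPKM, with 21.8 FPKM in TBX20fl/fl replicate 2 and 36.1 to 62.9 FPKM in the others.

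Of 22 regulators of keratin genes, 4 had an unadjusted p under 0.05 in the higher direction (2.45% of all genes) and 0 in the lower (5.91%), with a median log2 fold change of 0.33 against 0.03 over all genes. Tfap2a, which encodes the factor AP-2 alpha that acts on many keratin promoters, was at 10.0 ± 0.838 FPKM in TBX20fl/fl;K14-Cre and 6.38 ± 2.27 FPKM in TBX20fl/fl mice (log2 fold change 0.52, edgeR adjusted p = 0.498). Zfp750, a gene of epidermal differentiation, was at 22.2 ± 2.56 and 14.6 ± 5.44 FPKM (log2 fold change 0.49, edgeR adjusted p = 0.498). The lowest value of both was that of TBX20fl/fl replicate 2, with 3.24 FPKM of Tfap2a and 7.0 FPKM of Zfp750, and the part of that library in the difference was not tested. Of 10 genes of the EGF receptor pathway, which induces the wound keratins in cultured keratinocytes, 0 had an unadjusted p under 0.05. Egfr was at 13.5 ± 1.51 and 9.61 ± 3.19 FPKM, and the ligand gene Epgn at 4.65 ± 1.98 and 8.88 ± 8.07 FPKM with its highest value, 20.7 FPKM, in TBX20fl/fl replicate 4.

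Other genes of the same epidermal layers were read in the same way, from lists that partly repeat those above. Of the basal markers, Itga6, Itgb4, Col17a1, Dst and Dsg3 were also on the list of desmosomes and hemidesmosomes, and Trp63 was among the regulators. Of the suprabasal markers, Dsg1a and Dsc1 were also on the list of desmosomes and hemidesmosomes. The counts of these lists are therefore not independent. Of 8 basal markers that are not keratins, 7 had a log2 fold change above 0 and 0 an unadjusted p under 0.05 (median 0.29, against 0.03 over all genes). The 8 summed to 75.0 FPKM in TBX20fl/fl replicate 2 and to 154.6 to 246.9 FPKM in the other mice, and the part of that library was not tested. The basal regulator gene Trp63 was at 31.1 ± 4.52 FPKM in TBX20fl/fl;K14-Cre and 21.8 ± 6.55 FPKM in TBX20fl/fl mice (edgeR adjusted p = 0.498), with 12.9 FPKM in TBX20fl/fl replicate 2 and 21.5 to 37.1 FPKM in the other mice. Of 12 suprabasal markers that are not keratins, 3 had an unadjusted p under 0.05, all lower (5.91% of all genes; median -0.26 against 0.03). Their summed level was 6136 to 7458 FPKM in TBX20fl/fl;K14-Cre and 7385 to 12269 FPKM in TBX20fl/fl mice, with the highest sum in TBX20fl/fl replicate 2. Krtdap, a secreted protein gene of differentiating keratinocytes, was at 2521 ± 238.3 and 3932 ± 1521 FPKM (log2 fold change -0.89, edgeR adjusted p = 0.498). Every basal and suprabasal marker that the table holds was above 3 counts in at least 1 mouse, as were the markers of the other cell types found there.

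Markers of other skin cells and structures were high in the mice with the highest Krt17 and the highest wound keratins, 1 mouse in each case. The 20 keratins of the hair follicle sheath and shaft found in the table summed to 46.9, 1944, 291.8 and 74.5 FPKM in TBX20fl/fl;K14-Cre replicates 1 to 4 and to 22.9, 156.7, 172.1 and 39.0 FPKM in the TBX20fl/fl mice. The mouse with the highest sum was the mouse with the highest Krt17, and among the other 7 the highest sum went with one of the lower Krt17 levels. Of these 20 genes 19 had a log2 fold change above 0 and 7 an unadjusted p under 0.05 in the higher direction, against 2.45% of all genes, with a median of 1.53 against 0.03. Without TBX20fl/fl replicate 4, 1 of the 20 had an unadjusted p under 0.05 in that direction, against 628 of 17012 genes. The median log2 fold change of the 20 was then 1.33, against 0.04 over all genes. That fit kept TBX20fl/fl;K14-Cre replicate 2, the mouse with the highest sum. Krt71, a keratin of the inner root sheath, was at 530.4 FPKM in TBX20fl/fl;K14-Cre replicate 2 and at 3.75 to 76.9 FPKM elsewhere. The share of hair follicle in the sampled skin, and its part in the Krt17 level, was not tested.

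The 11 neutrophil markers summed to 111.5, 221.1, 170.1 and 301.1 FPKM in the TBX20fl/fl;K14-Cre mice and to 294.1, 927.0, 332.2 and 979.4 FPKM in the TBX20fl/fl mice. The highest sum was in TBX20fl/fl replicate 4, the mouse with the high wound keratins, but TBX20fl/fl replicate 2 had nearly the same sum with only 53.54 FPKM of Krt6a and 7.43 FPKM of Krt6b. Of the 11 markers 10 had a log2 fold change below 0 and 6 an unadjusted p under 0.05, all lower (5.91% of all genes; median -0.96 against 0.03). S100a8 and S100a9, which lead the sum and which stressed keratinocytes can also express, were at 75.5 ± 30.8 against 274.4 ± 173.6 FPKM (edgeR adjusted p = 0.498) and 83.1 ± 37.2 against 296.3 ± 186.6 FPKM (edgeR adjusted p = 0.498). Ly6g, specific to neutrophils, was low, at 0.162 ± 0.0532 and 0.473 ± 0.0881 FPKM. The part of neutrophils in the keratin levels was not tested.

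**Figure D5:**
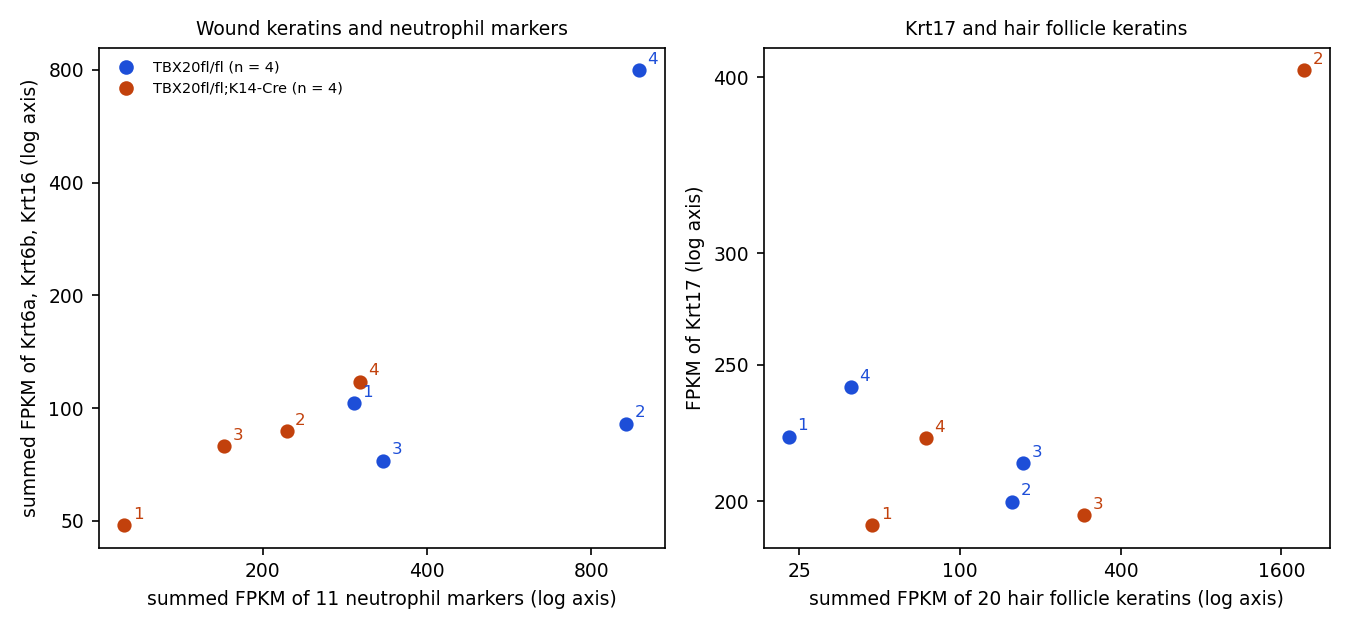
Left, summed FPKM of Krt6a, Krt6b and Krt16 against summed FPKM of 11 neutrophil markers; right, FPKM of Krt17 against summed FPKM of 20 hair follicle keratins, one numbered point per mouse and log axes. TBX20fl/fl replicate 4 is high on both axes on the left while TBX20fl/fl replicate 2 is high only in the markers (927.0 FPKM), and TBX20fl/fl;K14-Cre replicate 2 stands alone on the right (404.5 and 1944 FPKM).

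Markers of the remaining tissues of the cheek were read last. Skeletal muscle markers summed to 10648 to 17513 FPKM in TBX20fl/fl;K14-Cre and 14115 to 20887 FPKM in TBX20fl/fl mice, so muscle RNA was plentiful in every sample, and 1 of 12 had an unadjusted p under 0.05, in the lower direction. Sebaceous gland markers (0 of 8 under 0.05), adipocyte markers (1 of 8 lower and 1 of 8 higher) and fibroblast markers (2 of 7 higher) overlapped between genotypes in their sums, as did the muscle markers (over all genes 5.91% lower and 2.45% higher). The median log2 fold change was 0.37 for the fibroblast markers, 0.13 for the adipocyte markers, -0.11 for the sebaceous markers and -0.06 for the muscle markers, against 0.03 over all genes. Of the 7 fibroblast markers 4 had a log2 fold change above 0 and 3 below. Col1a1, a collagen gene of fibroblasts, was at 398.3 ± 185.4 FPKM with Cre and 173.3 ± 80.6 FPKM without (log2 fold change 1.10, edgeR adjusted p = 0.498), and Col1a2 at 556.8 ± 231.2 and 299.0 ± 70.5 FPKM (log2 fold change 0.75, edgeR adjusted p = 0.498). Dcn, the fibroblast marker of highest level, was at 2287 ± 229.7 and 3033 ± 943.8 FPKM (log2 fold change -0.64, edgeR adjusted p = 0.498). Of the 8 adipocyte markers 5 had a log2 fold change above 0 and 3 below. Adrb3, the one of smallest p, was at 6.17 ± 0.832 FPKM with Cre and 3.8 ± 0.859 FPKM without (log2 fold change 0.55, edgeR adjusted p = 0.498). Retn, the resistin gene of adipocytes, was at 137.9 ± 76.1 and 238.1 ± 80.8 FPKM (log2 fold change -1.04, edgeR adjusted p = 0.498).

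Promoter sequence was at hand for 4 of the 10 keratins (Krt2, Krt5, Krt10 and Krt14) in the RefSeq tables for GRCm38.p6, each with 250 bases before the start and 50 after it. The Krt14 entry begins at a start inside the gene and is not shown. Since the deleted factor is a T-box protein, the T-box half-site AGGTGT was searched on both strands. It occurs in 13.7% of the 32851 promoters of the table. Krt5 holds it on the forward strand, 127 bases before the start, and Krt2 on the reverse strand, 45 bases before the start, and neither Krt10 nor the Krt14 entry holds it. The AP-1 site TGANTCA (7.81% of promoters) was in none of the 4, and the TATA box TATAAA (13.6%) was in Krt10, 26 bases before the start. Only exact matches to these letters were counted, so variants of a site, such as tatataag in the Krt2 sequence below, were not. The 130 bases before the start of Krt5 (chr15:101712906-101713035, minus strand) and Krt2 (chr15:101818170-101818299, minus strand) are given with the T-box half-site, or its reverse complement, in capitals. A match of letters is a description and no evidence of binding.

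Krt5 promoter: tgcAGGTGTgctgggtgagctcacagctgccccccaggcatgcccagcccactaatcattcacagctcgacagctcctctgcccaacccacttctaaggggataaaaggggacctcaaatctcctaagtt

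Krt2 promoter: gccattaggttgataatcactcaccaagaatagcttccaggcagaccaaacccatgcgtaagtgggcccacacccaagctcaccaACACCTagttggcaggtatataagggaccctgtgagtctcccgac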

How the data were processed

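Cheek skin RNA of the 8 mice was sequenced by the authors (single-end, 50 bases), filtered with SOAPnuke and aligned with HISAT. Groups and replicate numbers follow the deposited labels. The authors deposited estimated counts (expected counts, not normalized); the counting program is not given in the sources used here. The authors also deposited FPKM values from the Dr. Tom platform. The authors scaled the deposited TPM values to an equal sum in each mouse, and these were not used. The deposited normalized signal, which the authors made by scaling each library's counts with its size factor, was not used. The log2 fold changes, p-values and group means that the authors deposited were not used either.

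The counts were made whole by rounding. The 17124 genes that reached 10 counts in total were scaled by TMM and compared with edgeR 4.0.16 (quasi-likelihood test, R 4.3.3), with Benjamini-Hochberg adjustment over all genes and a threshold of 0.05. The SE is the log2 fold change over the root of its F statistic. For FPKM, limma 3.58.1 was used (mean-variance trend) on log2(FPKM + 1) for the 15969 genes averaging 0.1 FPKM or more; this scale understates changes of low genes. The FPKM of each keratin, 10 in all, was set between the genotypes by the exact permutation test (two-sided, unadjusted). DESeq2 1.42.0 served as an alternative; scripts used Python 3.11.15, numpy 2.4.6 and pandas 2.3.3. The count and FPKM tests were also run on simulated data, and the outcome is not given here. Total counts were 16056282 to 19880654 per mouse.

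All keratins of the set are named. From each other list the 2 genes of highest mean FPKM and the 2 of smallest p were eligible; genes singled out in TBX20fl/fl replicate 4 were chosen after their values were seen. The keratins and gene lists were chosen with earlier results of these data known. Of the lists, the hair keratins Krt74 and Krt85 were not in the table, loricrin was listed under 2 symbols of which the table uses Lor, and Krt76 was at or under 3 counts in every mouse. Shared stretches were counted in GENCODE transcripts of GRCm38. The authors do not describe the replicate numbers as pairs; deviations from the group means of same-numbered mice correlated at 0.108 to 0.323, against -0.407 to 0.32 in the 12 other pairings, so the numbers were treated as pairs in an alternative fit. Alternatives were other scalings, filters, pseudocounts and tests, the replicate block, a transcript-length offset, a muscle covariate and leaving out mice.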

Additional observations from a re-analysis of the deposited data

Results flagged for a closer look

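Of 64 groups of 4 values examined for a value far from the other 3 of its genotype, 12 held one, where chance at 1 in 20 gives about 3.2. The groups are not independent, since several are built from the same keratins, and the values are given with no explanation.

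In 6 of the groups the value was that of TBX20fl/fl replicate 4. It had 327.3 FPKM of Krt6a against 52.7 to 63.9 FPKM in the other TBX20fl/fl mice, 241.1 FPKM of Krt6b against 3.65 to 12.1 FPKM, and 228.6 FPKM of Krt16 against 16.1 to 29.97 FPKM. Its ratio of Krt6a plus Krt6b to Krt16 plus Krt17 was 1.21 against 0.246 to 0.305, and its ratio of the stress-induced keratins to Krt5 plus Krt14 was 0.456 against 0.159 to 0.191. Its ratio of Krt15 to Krt14 was low, at 0.278 against 0.714 to 0.745.

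TBX20fl/fl;K14-Cre replicate 2 stood out in 4. It had 404.5 FPKM of Krt17 against 192.4 to 221.8 FPKM in the other TBX20fl/fl;K14-Cre mice, and a summed level of hair follicle keratins of 1944 FPKM against 46.9 to 291.8 FPKM. Its Krt1 level was low, at 230.6 FPKM against 336.5 to 347.2 FPKM, and so was its ratio of Krt1 plus Krt10 to Krt5 plus Krt14, at 0.622 against 0.859 to 0.888.

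The remaining 2 were lists. The suprabasal markers that are not keratins summed to 12269 FPKM in TBX20fl/fl replicate 2 against 7385 to 8068 FPKM, and the adipocyte markers to 1158 FPKM in TBX20fl/fl;K14-Cre replicate 3 against 898.6 to 937.7 FPKM.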

How the results depend on the processing

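No setting brought any of the 10 keratins past an adjusted p of 0.05: over 19 alternatives each, adjusted p ranged from 0.316 to 0.999. The number of genes past the threshold was 0 in every edgeR and limma alternative, including each fit without 1 mouse (0 to 0), and was 10 with DESeq2 at its default settings and 11 with DESeq2 without Cook's cutoff and independent filtering, with no keratin of the 10 among them; DESeq2's default settings gave no p for Krt6a and Krt6b. Of the 10 keratins, 3 had an unadjusted p under 0.05 in edgeR. That count was 1 with the length trend removed, 1 with the length trend removed and the block, 2 with the block, 2 with filterByExpr and 0 with the muscle covariate, and 0 to 3 when each mouse was left out (0 without TBX20fl/fl;K14-Cre replicate 1, 2 or 3). The number over all genes moved as well, for example from 1431 to 750 with the muscle covariate. The replicate block (pairing the same-numbered mice) left 0 genes past the threshold and changed no adjusted call. With the length trend removed, Krt15 was at -0.09 and Krt14 at -0.08, and Krt15 was at -0.05 with the block added. With the block Krt6a no longer had an unadjusted p under 0.05, and the log2 fold changes of Krt2 and Krt17 changed sign, to 0.08 and -0.02.

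No value that changed sign had a call. The log2 fold change of Krt2 was 0.11 with the length trend removed and the block, 0.11 with the muscle covariate and 0.11 without TBX20fl/fl replicates 2 and 4 together, and its difference was -0.429 on the CPM scale. That of Krt17 was -0.10 with the muscle covariate. Without TBX20fl/fl replicates 2 and 4 together, an alternative chosen after seeing the data, Krt1 was at -0.04 and Krt10 at -0.06.

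Leaving out each mouse in turn, the log2 fold change ranged from 0.04 to 0.24 for Krt1, -0.04 to 0.18 for Krt10, -0.47 to 0.42 for Krt2, -0.28 to 0.15 for Krt17, -1.52 to -0.26 for Krt6a, -4.00 to -0.37 for Krt6b, -2.47 to -0.50 for Krt16 and -0.54 to -0.14 for Krt15, and the difference in mean FPKM from 42.9 to 168.0 for Krt5, 90.1 to 276.7 for Krt10, 19.9 to 82.1 for Krt1, -173.2 to -10.6 for Krt14, -169.2 to -4.02 for Krt15, -0.195 to 0.436 for Krt2 and -15.8 to 54.9 for Krt17. TBX20fl/fl replicate 4 gave the end nearest 0 for Krt6a, Krt6b and Krt16. The log2 fold change of Krt14 from counts ranged from -0.38 to -0.22. The cause of these changes was not tested. With 4 mice a genotype the exact permutation test cannot go below 0.0286, and a difference that misses the threshold is not shown to be absent.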
